A study of Lactuca sativa with 20 samples.

Results

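The genes described here are 150 of 37828 gene models of lettuce (Lactuca sativa). By group mean, their transcripts were lower in seedlings given abscisic acid (ABA). In seedlings given ACC or the peptide CLE12p the group means were close to the control level. They were chosen by level. Counts were scaled to the library total (CPM), and the log2 of the group mean plus 1 was compared with that of the 5 control libraries. A member had a mean of at least 1 CPM over all 20 libraries, a difference of -1 or lower in ABA, differences of less than 0.4 in size in ACC and in CLE12p, and a CPM in every ABA library below that of every control library. The levels of ABA, ACC and CLE12p against the controls are therefore given as a description, with no test.

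RNA was sequenced from whole Little Gem seedlings, 4 days old, that had grown on MS basal medium in constant light at 22 °C and were then held for 2 h in a treatment. CLE12p with ABA, ABA, CLE12p with ACC, ACC and CLE12p alone had 3 libraries each, with every agent at 10 µM. The controls were 0.02% ethanol with 2 libraries and water with 3, and they are pooled below because the labels do not say which of them belongs to which treatment. The design text of the study lists a mixture of ABA and ACC in place of CLE12p with ACC, and groups here follow the sample labels. Library totals lay between 18614220 and 27101622 counts, and nothing says that replicates came from separate cultures, so p-values measure a spread that may be technical.

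ABA is a hormone of drought, seed dormancy and the restraint of growth. It binds soluble receptors that then inhibit protein phosphatases, which frees kinases that act on transcription factors, and transcripts both rise and fall as a result. ACC is the direct precursor of the gas ethylene, and CLE peptides are short secreted signals read by receptor kinases at the cell surface. Of the 37828 identifiers 0 matched the reference gene table, so the members carry no gene name, role or sequence here, and the tissue label could not be checked against marker genes. In whole seedlings, fewer cells of a type and less RNA per cell cannot be told apart.

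The choice of members ran through 4 steps. A mean of at least 1 CPM was reached by 20479 genes, and 337 of these had a difference of -1 or lower in ABA. In 329 the ABA libraries lay below every control library, and 8 were dropped because they did not. Among the 329, 134 were not flat in ACC and 121 were not flat in CLE12p, which left the 150 members and set aside 179 genes that ACC or CLE12p also moved. The member nearest the ABA threshold had a difference of -1.0008 and the gene just outside had -0.9991. For ACC the nearest values were 0.397 inside and -0.413 outside, and for CLE12p they were 0.399 inside and -0.407 outside. The lowest mean level of a member was 1.03 CPM.

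Most members were moderately reduced in ABA, and few were nearly silent. The median difference from the controls was -1.26 on the log2(CPM + 1) scale, and members ranged between -5.15 and -1.0008. In 105 members the difference lay between -1.5 and -1, in 32 between -2 and -1.5, in 11 between -3 and -2, and in 2 at -3 or lower. The median member stood at 29.4% of its control level in ABA. Control levels, which are not corrected for transcript length, had a median of 8.38 CPM and spanned 1.30 to 603 CPM. They were below 5 CPM in 51 members, from 5 to 10 CPM in 29, from 10 to 100 CPM in 55 and at 100 CPM or more in 15. Because 1 CPM is added before the log is taken, the differences of the low members understate their change.

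Lsat_1_v5_gn_5_60700 had the lowest difference in ABA. Its level was 0.775, 0.593 and 1.19 CPM in the 3 ABA libraries, against 63.6 and 65.7 CPM in ethanol and 69.3, 59.7 and 64.7 CPM in water. The ABA libraries thus stood at 1.32% of the control mean. Its CLE12p with ABA libraries had 0.649, 1.19 and 0.596 CPM. With CLE12p and ACC it had 78.4, 81.5 and 83.4 CPM, in ACC 72.1, 85.6 and 74.0 CPM, and in CLE12p 75.5, 76.3 and 87.7 CPM. All 6 libraries with ABA lay near 1 CPM and the other 14 lay between 59.7 and 87.7 CPM.

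Lsat_1_v5_gn_9_37560, next in order, kept more of its transcript. It had 13.8, 15.3 and 14.3 CPM in ABA, against 171 and 189 CPM in ethanol and 201, 169 and 191 CPM in water. In CLE12p with ABA it had 17.6, 42.1 and 22.1 CPM, of which replicate 2 was the highest and all 3 lay above the ABA libraries. In the remaining treatments it had 258, 264 and 225 CPM with CLE12p and ACC, 218, 233 and 223 CPM in ACC, and 222, 218 and 254 CPM in CLE12p.

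The libraries of CLE12p with ABA took no part in the choice of members beyond the floor on the mean level, and the members were low in them as well. Their median difference from the controls was -1.32, -1.12 and -1.20 in the 3 libraries, beside -1.36 to -1.28 in the ABA libraries. Over the group, 111 of the 150 members stood at -1 or lower, 141 at -0.5 or lower and 147 at 0 or lower, and the median member was at 33.2% of its control level. The 3 libraries of CLE12p with ABA lay below all 5 control libraries in 134 members, where 11.5% of all 20479 genes did so, and above them in 0 members, where 13.6% of all genes did. In the other 16 members they overlapped the controls. The rule had chosen members whose controls lay above the ABA libraries, so these counts are a description and are not read against the shares over all genes.

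With CLE12p and ACC together the median member stood near the control level, but some members did not. The libraries of CLE12p with ACC had median differences of -0.002, 0.04 and -0.04, and over that group the members spread from -2.12 to 0.89. The 7 members described further below, which were higher in CLE12p with ABA than in CLE12p with ACC, had medians of -1.08, -1.53 and -1.40 in these libraries. They were picked out by that difference, which favours low levels in CLE12p with ACC, so these medians are a description. The 3 libraries lay below all controls in 12 of the 150 members (13.1% of all genes) and above them in 21 (12.3% of all genes). The rule used the controls, so these counts are a description and are not read as a result about the members. The 179 genes that the rule set aside, given as a description, had a median difference of -1.02 in CLE12p with ABA, 0.82 in CLE12p with ACC, 0.57 in ACC and 0.48 in CLE12p. For the 150 members those medians were -1.19, -0.01, 0.06 and 0.03.

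**Figure D1:**
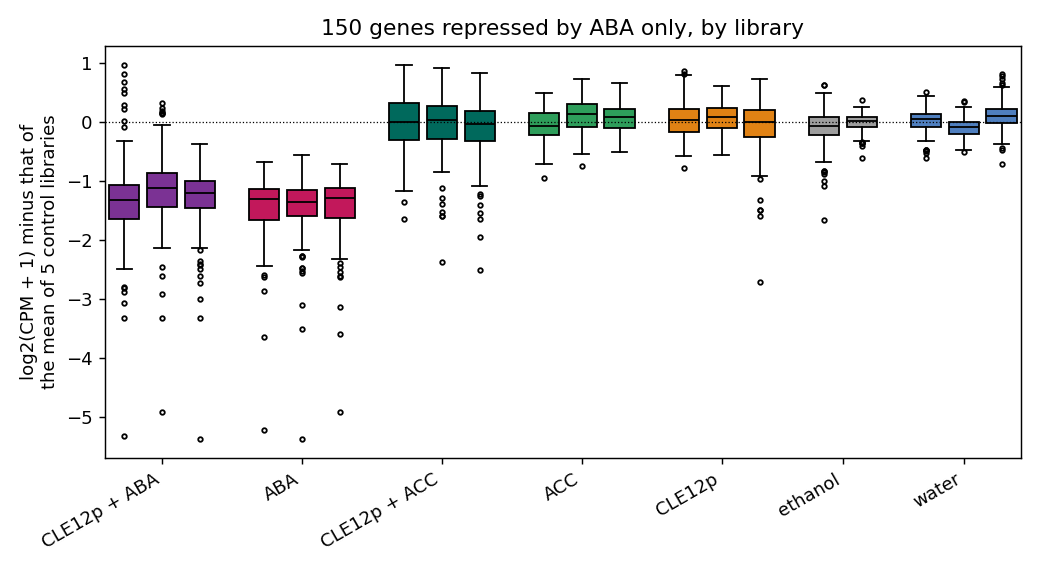
Difference of each of the 150 members from the mean of the 5 control libraries on the log2(CPM + 1) scale (vertical axis), for each of the 20 libraries by group (horizontal axis). Boxes span the quartiles with the median as a line, whiskers reach at most 1.5 box lengths, and circles are members beyond them. The medians of the 6 libraries with ABA lie between -1.36 and -1.12, and those of the other 14 between -0.09 and 0.12.

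CLE12p with ABA against CLE12p with ACC is the comparison of hormones in which neither group set the choice of members. In the edgeR quasi-likelihood test, 135 of the 150 members were lower in CLE12p with ABA at an adjusted p below 0.05, where 11.7% of all 23413 genes tested were called lower. Another 7 members were higher, where 10.4% of all genes were called higher. The median log2 fold change of the members was -1.67, with quartiles of -2.07 and -1.20, beside -0.003 over all genes. Among the calls, 127 members had a log2 fold change of -1 or lower and 45 had -2 or lower. The libraries did not overlap in 132 members that were lower, where 14.4% of all genes did so, and in 5 that were higher, where 18.9% did.

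The 8 members that were not called had adjusted p values from 0.061 to 0.871 in edgeR, and 6 of them had a fold change below 0. Lsat_1_v5_gn_5_60700, whose libraries are given above, was lower by a log2 fold change of -6.68 ± 0.17 (SE; edgeR adjusted p = 4.22e-17). Lsat_1_v5_gn_6_78320 was sparse, with 2, 0 and 0 counts in CLE12p with ABA, against 36, 32 and 41 counts in CLE12p with ACC. The libraries did not overlap, and the summed counts, scaled to library totals, were 54.0 times higher in CLE12p with ACC (95% exact interval 14.6 to 452, which covers counting error only). Its fitted log2 fold change was -5.56 ± 0.80 (SE; edgeR adjusted p = 2.52e-05). In the ABA libraries this gene had 0 counts throughout.

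**Figure D2:**
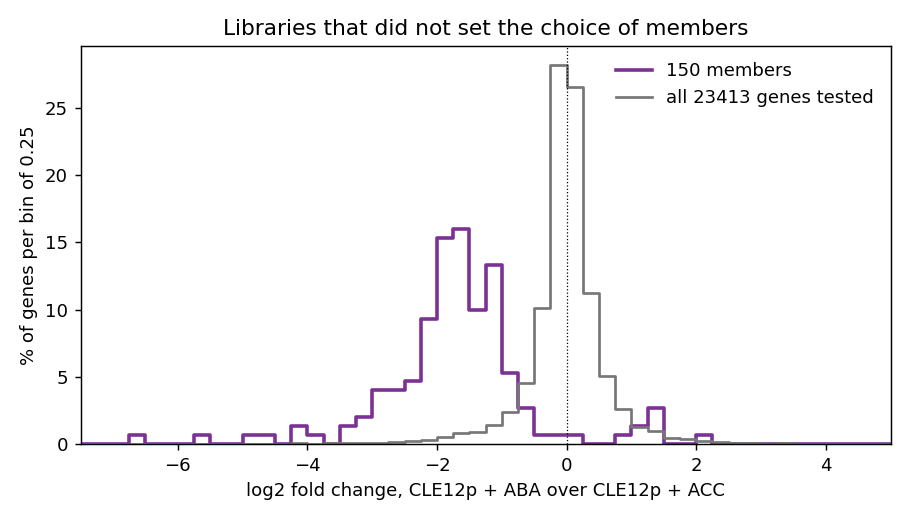
Distribution of the log2 fold change of CLE12p with ABA over CLE12p with ACC (horizontal axis) as the percent of genes in each bin of 0.25 (vertical axis), for the 150 members and for all 23413 genes tested. The members centre on -1.67 with 9 members above 0, and all genes centre on -0.003.

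A small set of members went the other way in this comparison. Lsat_1_v5_gn_1_95341 had 693, 435 and 145 CPM in CLE12p with ABA, against 125, 75.3 and 68.6 CPM in CLE12p with ACC. The groups did not overlap, but replicate 3 of CLE12p with ABA lay close to replicate 1 of CLE12p with ACC. The log2 fold change was 2.21 ± 0.60 (SE; edgeR adjusted p = 0.00900). Lsat_1_v5_gn_9_104740 had 102, 56.3 and 26.3 CPM in CLE12p with ABA, against 22.7, 20.4 and 20.9 CPM in CLE12p with ACC. Here too the groups were apart and replicate 3 was the lowest, with a log2 fold change of 1.49 ± 0.44 (SE; edgeR adjusted p = 0.0160). Both calls rest on replicate 1 of CLE12p with ABA, without which the edgeR adjusted p was 0.0665 for Lsat_1_v5_gn_1_95341 and 0.168 for Lsat_1_v5_gn_9_104740. The second call was also lost without CLE12p with ACC replicate 2, at 0.0541. The count of 7 fell to 1 without replicate 1 of CLE12p with ABA and to 4 without replicate 2 of CLE12p with ACC.

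These 7 members, 3 of which are neighbours by identifier that may share reads, were grouped after their values were seen. Their median within-group SD on the log2 scale was wider than that of the other 143 members in CLE12p with ABA (0.764 beside 0.216) and in CLE12p (1.05 beside 0.172), and less so in ACC (0.284 beside 0.149) and in CLE12p with ACC (0.261 beside 0.207). In ABA it was narrower (0.108 beside 0.168), but the rule had required every ABA library to lie below all controls. The control levels of the 7 were also higher, with a median of 68.5 CPM beside 7.5 CPM. The part of the rule and of the level in these SDs was not tested. Between the highest and the lowest control library their level differed by a median of 2.72 times, beside 1.46 times for the other members. The first ethanol library was the lowest control in 7 of 7, beside 44 of the other 143. The third water library was the highest in 6 of 7, beside 51 of the other 143. Replicate 3 was the lowest of its group in 7 of 7 members both in CLE12p with ABA and in CLE12p. Among the other 143 it was the lowest in 41 in CLE12p with ABA and in 57 in CLE12p. The part of these single libraries in the result was tested only by leaving libraries out, as given above.

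The summed level of the 7 members shows the same spread. They held 2021, 1324 and 604 CPM in CLE12p with ABA, 431, 480 and 514 CPM in ABA, and 524, 401 and 408 CPM in CLE12p with ACC. In CLE12p they held 2031, 1326 and 371 CPM, and in ACC 1144, 1779 and 1375 CPM. Ethanol had 583 and 1292 CPM, and water had 1211, 1169 and 2066 CPM. The ABA and the CLE12p with ACC libraries were uniformly low. The rule had required low ABA libraries, and the 7 were grouped by lower levels in CLE12p with ACC than in CLE12p with ABA. Both low levels thus follow in part from the choice and are a description. CLE12p alone and CLE12p with ABA each held 1 low library, replicate 3, beside 2 higher ones. Replicate 3 of CLE12p, which had no ABA, lay below all 3 ABA libraries, so for these 7 low levels were not confined to ABA. The other 143 members together held 1816, 2238 and 1824 CPM in CLE12p with ABA and 1598 to 1652 CPM in ABA, against 4310 to 5529 CPM in the 14 libraries without ABA.

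**Figure D3:**
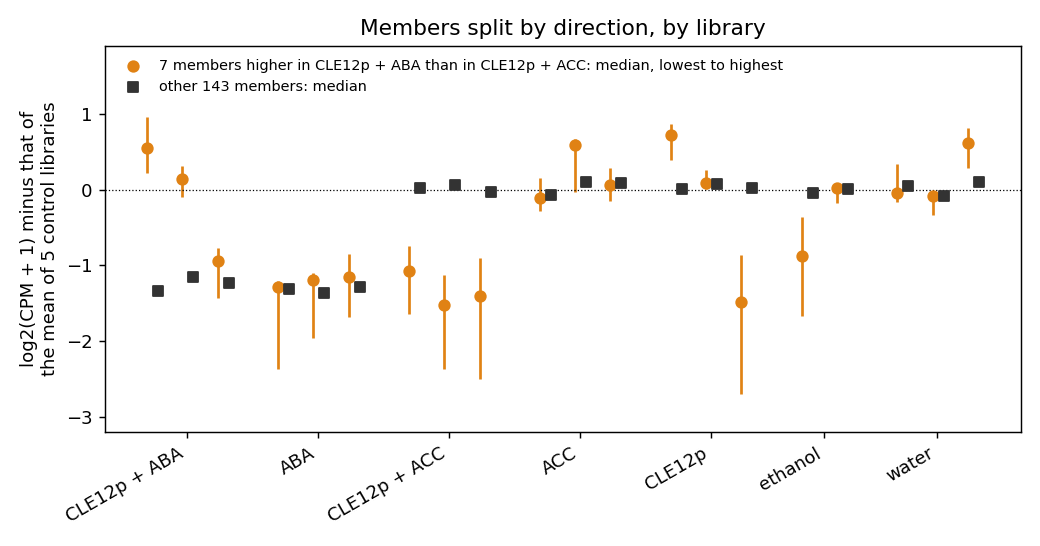
Difference from the mean of the 5 control libraries on the log2(CPM + 1) scale (vertical axis) in each library by group (horizontal axis). Circles are the median of the 7 members that were higher in CLE12p with ABA than in CLE12p with ACC, with a line from the lowest to the highest member, and squares are the median of the other 143. The 7 stand at 0.55, 0.14 and -0.94 in CLE12p with ABA and at 0.72, 0.09 and -1.49 in CLE12p, whereas the squares stay between -1.36 and -1.15 in all 6 libraries with ABA.

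CLE12p with ABA against CLE12p alone asked what ABA did in seedlings given the peptide. The CLE12p libraries had been chosen to be flat, so the counts and p-values draw in part on values that chose the members. This comparison is therefore less free of the rule than that with CLE12p and ACC. In edgeR 137 members were lower, where 7.93% of all genes were, and 0 were higher, where 6.24% of all genes were. At an unadjusted p below 0.05, 141 were lower and 0 higher, where 5858 of all genes passed in either direction. DESeq2 called 139 members lower and 0 higher. The median log2 fold change of the members was -1.60, beside -0.01 over all genes. Lsat_1_v5_gn_5_60700 was lower by -6.65 ± 0.17 on the log2 scale (SE; edgeR adjusted p = 4.83e-17). Lsat_1_v5_gn_6_78320 had 2, 0 and 0 counts in CLE12p with ABA, against 35, 24 and 20 counts in CLE12p, a level 42.7 times higher in CLE12p (95% exact interval 11.4 to 358). Its fitted log2 fold change was -5.23 ± 0.82 (SE; edgeR adjusted p = 0.000113).

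CLE12p with ABA against ABA asked what the peptide added beside ABA. The ABA libraries were chosen to be low, which by itself pushes this difference up, so the counts and p-values are no independent test and nothing is read from the shares beside them. In edgeR 11 members were higher, where 2.65% of all genes were, and 0 were lower, where 1.28% of all genes were. At an unadjusted p below 0.05, 38 were higher and 3 lower, where 4198 of all genes passed in either direction. DESeq2 called 16 members higher and 1 lower. With no filter on low counts, edgeR called 18 higher. The median log2 fold change was 0.16, beside 0.00 over all genes. Without single libraries the number called was 5 (ABA replicate 1), 7 (ABA replicate 2), 7 (ABA replicate 3), 4 (CLE12p with ABA replicate 2) and 20 (CLE12p with ABA replicate 3).

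Lsat_1_v5_gn_1_95341 had 693, 435 and 145 CPM in CLE12p with ABA, against 75.0, 100.4 and 122 CPM in ABA. The groups did not overlap, and the log2 fold change was 2.11 ± 0.60 (SE; edgeR adjusted p = 0.0487). Lsat_1_v5_gn_2_109801 had 27.2, 29.2 and 13.1 CPM in CLE12p with ABA, against 9.35, 9.90 and 11.1 CPM in ABA, also without overlap. Its log2 fold change was 1.20 ± 0.33 (SE; edgeR adjusted p = 0.0409). For both genes the call was lost in 5 of 6 settings that left out 1 library, where the edgeR adjusted p reached 0.190 for the first and 0.207 for the second. The first call was also lost when the replicate number was added as a block (edgeR adjusted p = 0.0952). Lsat_1_v5_gn_9_37560, described above, was higher by 0.91 ± 0.19 on the log2 scale (SE; edgeR adjusted p = 0.00863). It was named for its low level in ABA, which by itself pushes this difference up, so this p-value is no independent test.

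**Figure D4:**
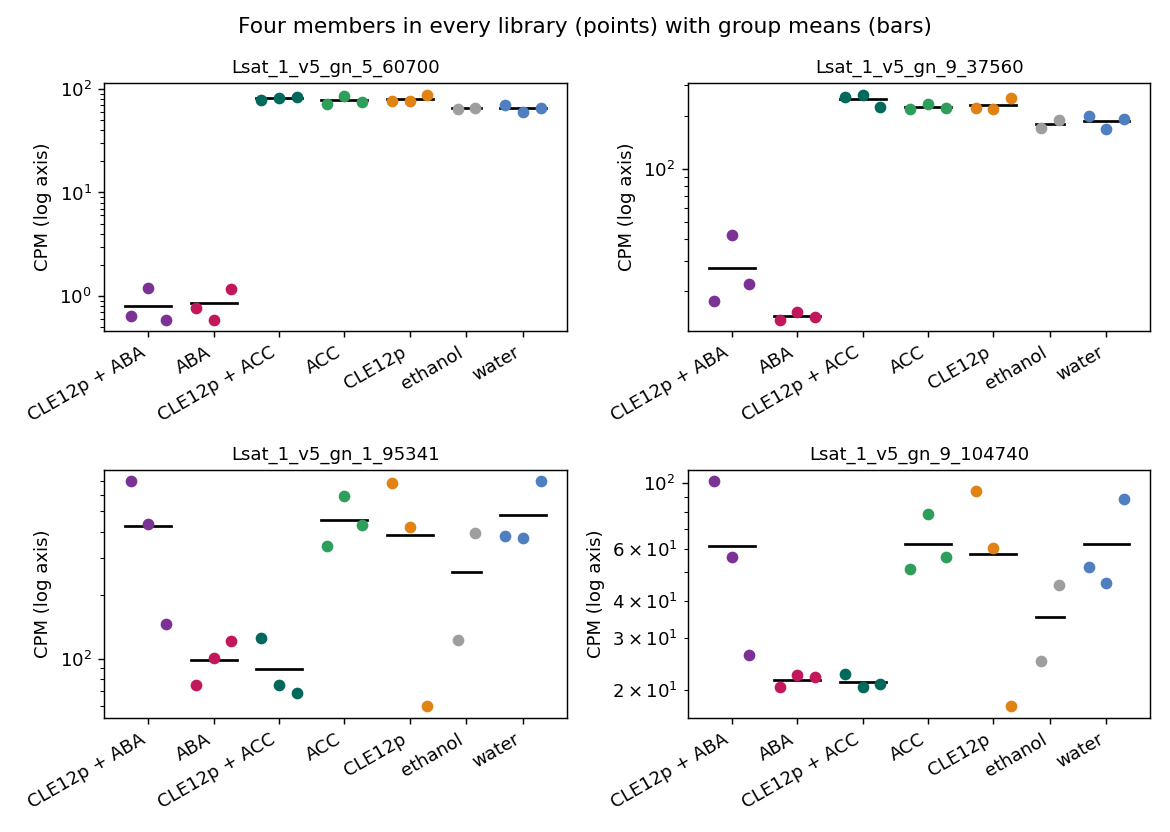
CPM on a log axis (vertical) of 4 members in every library (points) with group means (bars), by group (horizontal axis). Lsat_1_v5_gn_5_60700 and Lsat_1_v5_gn_9_37560 are low in all 6 libraries with ABA, whereas Lsat_1_v5_gn_1_95341 and Lsat_1_v5_gn_9_104740 are low in ABA and in CLE12p with ACC and vary widely within CLE12p with ABA and within CLE12p.

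CLE12p with ACC against ACC gave few calls among the members. The ACC libraries had been chosen to be close to the controls, so the counts and p-values of this comparison draw in part on values that chose the members. In edgeR 13 were lower, where 1.73% of all genes were, and 3 were higher, where 3.26% of all genes were, with a median log2 fold change of -0.01. Lsat_1_v5_gn_1_95341 had 125, 75.3 and 68.6 CPM in CLE12p with ACC, against 344, 593 and 429.8 CPM in ACC, a log2 fold change of -2.33 ± 0.60 (SE; edgeR adjusted p = 0.0238). Lsat_1_v5_gn_1_57701 had 2.99, 1.29 and 1.95 CPM in CLE12p with ACC, against 6.64, 9.34 and 6.17 CPM in ACC, a log2 fold change of -1.81 ± 0.43 (SE; edgeR adjusted p = 0.0132). Neither gene overlapped between the groups. Lsat_1_v5_gn_3_83141 had 14.5, 14.3 and 13.3 CPM in CLE12p with ACC, against 7.92, 9.45 and 10.2 CPM in ACC, a log2 fold change of 0.63 ± 0.18 (SE; edgeR adjusted p = 0.0478). Lsat_1_v5_gn_3_4220 had 24.1, 22.9 and 18.8 CPM in CLE12p with ACC, against 15.9, 17.9 and 15.7 CPM in ACC, a log2 fold change of 0.43 ± 0.12 (SE; edgeR adjusted p = 0.0437). These 2 genes were likewise apart. The number called was 10, 1 and 8 without ACC replicates 1, 2 and 3, and 3 and 6 without CLE12p with ACC replicates 2 and 3. Each of the 4 named calls was lost in at least 3 of 6 such settings.

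CLE12p with ACC against CLE12p asked what ACC did in seedlings given the peptide. Here the CLE12p libraries had been chosen to be close to the controls, and the same limit holds. In edgeR 10 members were lower, where 2.34% of all genes were, and 2 were higher, where 2.51% of all genes were, with a median log2 fold change of 0.01. Lsat_1_v5_gn_8_6380 had 42.7, 49.1 and 46.3 CPM in CLE12p with ACC, against 28.0, 33.4 and 29.3 CPM in CLE12p, and the groups were apart. Its log2 fold change of 0.62 ± 0.13 (SE; edgeR adjusted p = 0.00534) stayed past the threshold without any 1 of the 6 libraries. Lsat_1_v5_gn_4_63720 had 138, 143 and 131 CPM in CLE12p with ACC, against 103, 129 and 111 CPM in CLE12p, a log2 fold change of 0.28 ± 0.08 (SE; edgeR adjusted p = 0.0470). Lsat_1_v5_gn_1_118261 had 4.69, 4.24 and 2.23 CPM in CLE12p with ACC, against 14.7, 9.84 and 5.27 CPM in CLE12p, a log2 fold change of -1.41 ± 0.36 (SE; edgeR adjusted p = 0.0234). Lsat_1_v5_gn_3_45820 had 1.24, 1.33 and 1.42 CPM in CLE12p with ACC, against 2.26, 3.04 and 2.87 CPM in CLE12p, a log2 fold change of -1.01 ± 0.28 (SE; edgeR adjusted p = 0.0382). None of these 3 genes overlapped between the groups, and each lost its call in at least 4 of the 6 settings without 1 library and in a fit of the compared libraries alone. The number called was 1, 4 and 19 without CLE12p replicates 1, 2 and 3, and 7, 1 and 5 without CLE12p with ACC replicates 1, 2 and 3. It was 2 in a fit of the compared libraries alone and 19 in DESeq2.

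Whether the peptide's effect beside ABA differed from its effect beside ACC was tested as the difference between the 2 log2 fold changes, a test added after the data were seen. In edgeR this difference was above 0 in 13 members, where 0.666% of all genes were called so, and below 0 in 0, where 0.414% were. At an unadjusted p below 0.05 it was above 0 in 27 and below 0 in 0. Of all 23413 genes, 3173 had such a p in either direction. DESeq2 called 16 members above and 0 below. The rule used both the ABA libraries, chosen low, which pushes this difference up, and the ACC libraries, chosen flat, so the test is not independent of the choice of members. The number called was 0, 1 and 5 without ABA replicates 1, 2 and 3, 0 without ACC replicate 2, 2 without CLE12p with ABA replicate 2, and 3 and 2 without CLE12p with ACC replicates 2 and 3. Lsat_1_v5_gn_1_95341 had the highest difference among the members named above, at 4.44 ± 0.85 on the log2 scale (SE; edgeR adjusted p = 0.0186).

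**Figure D5:**
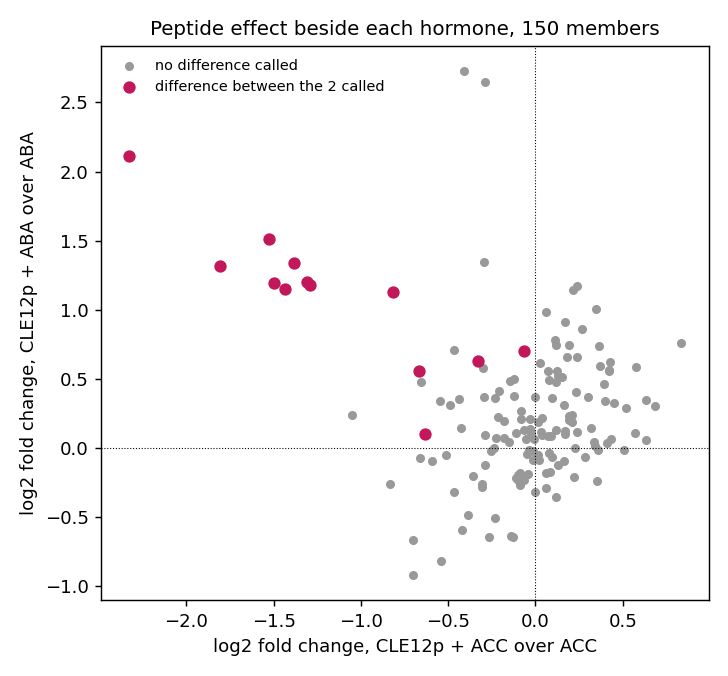
Log2 fold change of CLE12p with ABA over ABA (vertical axis) and of CLE12p with ACC over ACC (horizontal axis) for the 150 members. The 13 members for which the difference between these was called are marked, and all 13 lie above 0 beside ABA and below 0 beside ACC.

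Ethanol was compared with water because the controls are pooled. In edgeR 0 members and 0% of all genes were called, while 10 members (2 higher and 8 lower in ethanol) and 1251 of all genes had an unadjusted p below 0.05. The test rests on 2 ethanol libraries, and all 5 control libraries took part in the rule. It therefore cannot show that the 2 kinds of control are alike. As an example of the variable members, Lsat_1_v5_gn_1_95341 had 123 and 395 CPM in ethanol, against 383, 372 and 693 CPM in water, a log2 fold change of -0.89 ± 0.65 (SE; edgeR adjusted p = 0.936).

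Some members lay beside each other, or 2 steps apart, in the order of identifiers. Runs of members that were at most 2 steps apart numbered 7 and held 15 members. How many such runs other genes would form was not counted, so these numbers are a description. In 6 of these runs both members were lower in CLE12p with ABA than in CLE12p with ACC, with log2 fold changes between -3.28 and -1.17. The remaining run held 3 members, Lsat_1_v5_gn_9_104740 among them, and all 3 were higher, with log2 fold changes between 1.24 and 1.49. How reads that fit near-identical copies were counted is not given in the sources used here. Whether these neighbours are such copies could not be checked without sequences. They may share reads and are uncertain as separate genes.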

How the data were processed

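RNA-seq of whole lettuce seedlings gave 20 libraries in 7 groups. The deposited values are raw counts per gene model, made by the authors with 1 column per library. The submitters' processing notes name STAR 2.7.10a. Which tool and strand setting gave the counts, and on which build and annotation, is not given in the sources used here. Overlapping or antisense genes and near-identical copies can therefore share reads. The table held 37828 gene models, 9654 of them at 0 throughout, and 0 rows without an identifier. All 19 replicate pairs differed beyond sampling noise (chi-square over degrees of freedom 3.54 to 23.8). The reference table of 51651 genes (Lsat_Salinas_v11) matched 0 identifiers.

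The main test was that of edgeR 4.0.16 under R 4.3.3 (filterByExpr with a minimum of 10 counts, 23413 genes, TMM factors 0.961 to 1.03, a quasi-likelihood model of group means on all 20 libraries, biological coefficient of variation 0.117). All 150 members passed the filter. Tests were two-sided, with Benjamini-Hochberg adjustment over all genes tested and calls at an adjusted p below 0.05. Standard errors (SE) were derived from the F statistic, as the size of the log2 fold change over its square root. Per comparison, identifiers are given for at most 2 higher and 2 lower members, those with the most extreme fold change among calls whose libraries do not overlap. For ABA against the controls these are the 2 lowest. Outside this rule, Lsat_1_v5_gn_9_37560 is given again for CLE12p with ABA against ABA. Lsat_1_v5_gn_1_95341 is given for ethanol against water, where it was not called. The alternatives were DESeq2 1.42.0, RLE factors, no filter, a replicate block, a fit of the compared libraries alone, other control or pseudocount settings for the rule, and leaving out each library. The tests were checked on simulated counts. The members and the rules were chosen with earlier results of these data known.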

Additional observations from a re-analysis of the deposited data

Results flagged for a closer look

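The peptide's log2 fold change beside ABA (CLE12p with ABA over ABA) differed from that beside ACC (CLE12p with ACC over ACC) in 13 members, by edgeR's quasi-likelihood test of the difference itself. All 13 differences were above 0, where 0.666% of all genes were called so, and 0 were below 0, where 0.414% were. Among the members named in the text, this difference was 4.44 ± 0.85 for Lsat_1_v5_gn_1_95341 (SE; edgeR adjusted p = 0.0186), 3.13 ± 0.61 for Lsat_1_v5_gn_1_57701 (adjusted p = 0.0204) and 3.04 ± 0.62 for Lsat_1_v5_gn_9_104740 (adjusted p = 0.0242). It was 2.59 ± 0.51 for Lsat_1_v5_gn_1_118261 (edgeR adjusted p = 0.0211) and 2.51 ± 0.46 for Lsat_1_v5_gn_2_109801 (adjusted p = 0.0162). In all 5 the value beside ABA was above 0 and that beside ACC below 0. The test was added after the data were seen, and it is not independent of the choice of members, since the ABA libraries had been chosen to be low, which pushes the difference up, and the ACC libraries to be flat. In edgeR 0 members were called without ABA replicate 1 or without ACC replicate 2.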

How the results depend on the processing

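The number of members was 150, and it was 144 with TMM scaling, 175 with the water libraries alone as controls, 115 with ethanol alone, 181 with a pseudocount of 0.5, and 125 to 165 when 1 library was left out. Leaving out 1 library gave 134 to 138 calls for CLE12p with ABA against CLE12p with ACC, 129 to 139 against CLE12p, and 4 to 20 against ABA. It gave 1 to 11 for CLE12p with ACC against ACC, 1 to 19 against CLE12p, and 0 to 15 for the difference between the peptide's effects. For CLE12p with ABA against ABA, no filter gave 18 calls and DESeq2 17. For CLE12p with ACC against CLE12p, the compared libraries alone gave 2 calls and DESeq2 19. The causes were not tested. With the replicate number as a block the calls were 139, 137, 10, 15 and 9 for the 5 comparisons in the order above and 12 for the difference. Over all genes tested, same-numbered libraries did not deviate together (r from -0.221 to 0.114 over 15 pairs, 1 above 0.1). The numbers were therefore not taken as pairs. The correlation was not computed for the members alone. In the 7 members higher in CLE12p with ABA than in CLE12p with ACC, replicate 3 was the lowest both in CLE12p with ABA and in CLE12p. Of 176 alternative values of single members, 125 kept their direction and side of the threshold, 51 kept the direction and lost the call, and 0 reversed. Low counts limit the members under 5 CPM.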
